A study of Mus musculus with 12 samples.

Results

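Genes that mark the choroid plexus, the ependyma and the meninges were examined across cerebellar libraries of 12 mice. They are 31 genes chosen by symbol from the 18394 genes of the deposited count table: 10 of choroid plexus epithelium, 2 of ciliated ependymal cells and 19 of meningeal fibroblasts and their matrix. All 31 were found in the table and all 31 passed the filter on low counts. The 6 cKO libraries came from animals that the submitters name deltaalpha6-Cre Crfr1 knock-out mice, and the other 6 libraries came from WT mice. Crfr1, listed in the table as Crhr1, encodes a receptor for the stress peptide CRF. The name of the driver refers to Gabra6, a GABA-A receptor subunit gene that granule cells of the cerebellum express. No group with the driver alone is named, and the labels give no strain, age, sex, litter or day of dissection. Each library came from the whole cerebellum of 1 animal.

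The choroid plexus is a folded epithelium in the brain ventricles that secretes cerebrospinal fluid, and in the mouse the plexus of the fourth ventricle lies against the cerebellum. Ependymal cells line the ventricles and carry motile cilia, while the meninges are layers of fibroblasts that wrap the brain and lay down collagen and proteoglycans. Whether plexus and meninges are taken or left at dissection can change how much of their RNA a cerebellar sample holds, and such genes are read as a gauge of this.

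Library totals ran from 23.8 M to 62.1 M counts (M, units of 1e6), and single members had between 17 counts (Enkur) and 54548 counts (Ttr) in a library. Values below are CPM, in which each count is divided by its TMM-scaled library total in units of 1e6. Defining markers of all 3 tissues were present in every library. Per kilobase of annotated exon, Ttr had the highest mean level of the 31 members at 310 CPM per kb, followed by Mgp at 18.4 and Igf2 at 16.3, while Prlr was lowest at 0.213 CPM per kb. Hox genes of the hindbrain behind the cerebellum were nearly absent: 10 of 11 listed were in the table, the highest count of any was 10, and 0 were tested.

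Choroid plexus genes varied far more between animals than the other members. Ttr, which encodes the thyroid hormone and retinol carrier transthyretin, measured 117.5, 242 and 929.8 CPM in cKO libraries (lowest, median and highest) and 173, 434 and 572 CPM in WT libraries. The genotypes overlapped, and both the lowest and the highest library were cKO: cKO 4, cKO 1 and cKO 2 stood at 117.5, 125 and 138 CPM, and cKO 6 at 929.8 CPM. Ttr thus spanned 7.91-fold, the 7th widest range of the 13821 tested genes with a mean of at least 1 CPM. In bulk tissue, fewer cells of a type and less RNA per cell cannot be told apart.

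**Figure D1:**
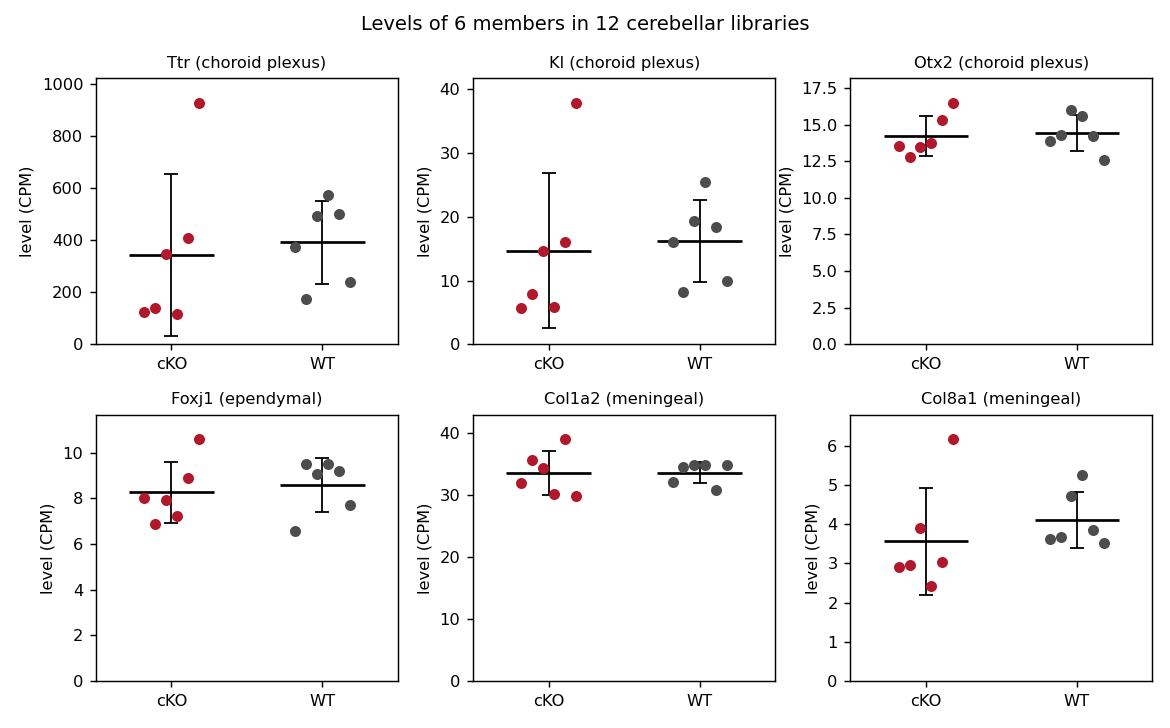
Level (CPM, linear axis from 0) of Ttr, Kl, Otx2, Foxj1, Col1a2 and Col8a1 in 12 libraries, cKO left and WT right; points are single animals, lines are means and bars are SD (n = 6 each). Ttr spreads between 117.5 and 929.8 CPM in cKO, while Col1a2 stays between 29.9 and 39.0 CPM in cKO and 30.8 and 34.8 CPM in WT.

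The other secretory, transport and receptor genes of the epithelium followed the same libraries. Kl, which encodes the FGF23 co-receptor klotho, measured 5.75, 11.3 and 37.9 CPM (lowest, median, highest) in cKO and 8.13, 17.2 and 25.4 CPM in WT. Folr1, the folate receptor that carries folate into cerebrospinal fluid, measured 0.972, 1.89 and 6.60 CPM in cKO and 1.47, 3.10 and 3.88 CPM in WT. The genotypes overlapped for both, and cKO 6 was the highest library for each of the 10 choroid plexus members. The water channel Aqp1 measured 0.855, 1.62 and 5.61 CPM in cKO and 1.05, 2.33 and 4.09 CPM in WT. The secreted BMP and Wnt antagonist Sostdc1 measured 0.570, 1.26 and 4.42 CPM in cKO and 0.838, 2.19 and 2.99 CPM in WT. Both genes spread over more than 6-fold, 6.56 for Aqp1 and 7.74 for Sostdc1, and 4 further members lay between 4.45 and 6.79: Folr1 at 6.79, Kl at 6.59, the prolactin receptor Prlr at 5.62 and the inward-rectifier potassium channel Kcnj13 at 4.45. The tight-junction protein Cldn2 spanned 4.39-fold, between 1.48 and 6.49 CPM. Clic6, a chloride channel family member, spanned 2.49-fold, with 13.1, 16.5 and 32.5 CPM in cKO and 14.2, 19.1 and 24.3 CPM in WT.

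Otx2, the homeodomain factor needed to form and keep the choroid plexus, was the exception among the 10 members. It measured 12.8, 13.6 and 16.5 CPM in cKO and 12.6, 14.3 and 16.0 CPM in WT, a span of 1.31-fold. The cause of this narrower span was not tested. Narrow spans also occurred outside the members. Among 25 other choroid plexus genes tested, 18 spanned over 2-fold. Those below it included Sulf1 at 1.23-fold, Cab39l at 1.245-fold and Col9a3 at 1.26-fold.

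Promoters of genes that moved together can be set beside that of a steadier gene. The windows are 300 bases around the RefSeq start (250 before to 50 after, GRCm38.p6, mm10). Shown are those of 4 choroid plexus members and of the fibroblast collagen gene Col1a2. They are Kl (chr5:150952357-150952656, plus strand), Kcnj13 (chr1:87394680-87394979, minus strand), Aqp1 (chr6:55336049-55336348, plus strand), Cldn2 (chrX:139800558-139800857, plus strand) and Col1a2 (chr6:4505368-4505667, plus strand). Sequences run 5′ to 3′ on the gene's strand, and capitals mark TATAAA.
Kl: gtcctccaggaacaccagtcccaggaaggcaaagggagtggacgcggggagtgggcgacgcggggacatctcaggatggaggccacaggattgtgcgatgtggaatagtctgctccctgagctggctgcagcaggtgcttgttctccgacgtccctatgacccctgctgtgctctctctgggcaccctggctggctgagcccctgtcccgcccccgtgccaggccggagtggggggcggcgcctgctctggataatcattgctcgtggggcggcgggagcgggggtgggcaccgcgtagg
Kcnj13: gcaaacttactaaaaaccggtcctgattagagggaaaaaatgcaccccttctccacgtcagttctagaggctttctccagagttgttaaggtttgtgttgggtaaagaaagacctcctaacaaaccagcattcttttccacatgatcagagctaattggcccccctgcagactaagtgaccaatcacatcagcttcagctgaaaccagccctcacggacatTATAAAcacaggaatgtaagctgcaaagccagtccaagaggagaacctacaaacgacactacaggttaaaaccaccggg
Aqp1: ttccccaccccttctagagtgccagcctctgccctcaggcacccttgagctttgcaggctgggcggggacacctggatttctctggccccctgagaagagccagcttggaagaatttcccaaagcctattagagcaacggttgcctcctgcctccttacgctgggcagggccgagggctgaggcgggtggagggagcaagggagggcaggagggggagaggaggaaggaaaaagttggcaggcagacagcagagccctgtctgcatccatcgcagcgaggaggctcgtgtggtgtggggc
Cldn2: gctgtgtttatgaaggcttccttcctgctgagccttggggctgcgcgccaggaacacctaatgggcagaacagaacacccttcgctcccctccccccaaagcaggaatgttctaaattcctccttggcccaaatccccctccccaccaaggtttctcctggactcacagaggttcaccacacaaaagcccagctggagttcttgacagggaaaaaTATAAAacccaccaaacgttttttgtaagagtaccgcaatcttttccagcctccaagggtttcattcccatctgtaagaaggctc
Col1a2: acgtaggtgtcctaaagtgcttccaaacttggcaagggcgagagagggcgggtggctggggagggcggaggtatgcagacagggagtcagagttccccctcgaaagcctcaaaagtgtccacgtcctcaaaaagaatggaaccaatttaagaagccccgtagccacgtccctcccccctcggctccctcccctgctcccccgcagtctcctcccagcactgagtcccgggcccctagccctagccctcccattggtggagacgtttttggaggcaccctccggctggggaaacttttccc
Each window was searched on both strands for TATAAA and for TAATCC, the core bound by OTX family factors. Matches of these motifs on opposite strands can share bases at their ends. A TATAAA match occurred at position -29 of Kcnj13 and -35 of Cldn2, counted from the start, and in 13.6% of all 32851 promoters of the RefSeq table. TAATCC occurred in 0 of these 5 windows and in 7.06% of all promoters. Of the 31 members, 21 had an entry, with 31 promoters in all. TAATCC was in 4 of these 31 promoters, which belong to Igf2, Otx2, Slc22a6 and Slc6a13. TATAAA was in 5 of the 31, which belong to Cldn2, Col3a1, Kcnj13, Ogn and Otx2. The GC content of the 5 windows shown ran between 46.0% in Kcnj13 and 67.3% in Kl.

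Meningeal genes were steadier than the choroid plexus genes. Col1a2, the α2 chain of type I collagen, measured 29.9, 33.1 and 39.0 CPM (lowest, median, highest) in cKO and 30.8, 34.6 and 34.8 CPM in WT, and its partner chain gene Col1a1 measured 11.2, 13.3 and 15.4 CPM in cKO and 11.6, 13.5 and 13.9 CPM in WT. The genotypes overlapped for both. Igf2, a growth factor made by leptomeningeal and plexus stroma cells, measured 78.6, 97.2 and 103 CPM in cKO and 84.0, 94.6 and 106 CPM in WT. Col6a1, a chain of type VI collagen, had the narrowest span of the 31 members at 1.16-fold. It was the only member below the median of 1.19-fold over the 13821 genes with a mean of at least 1 CPM. The next narrowest was Slc22a8 at 1.24-fold, and the median over the 19 meningeal members was 1.34-fold.

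The small proteoglycan genes gave the same picture. Dcn (decorin) measured 27.3, 29.8 and 33.8 CPM in cKO and 25.98, 30.1 and 34.2 CPM in WT, and Fmod (fibromodulin) 23.4, 26.6 and 31.4 CPM in cKO and 23.8, 26.4 and 28.4 CPM in WT. Bgn (biglycan) lay between 15.8 and 20.0 CPM in cKO and between 15.8 and 18.7 CPM in WT. Lum (lumican) was wider, at 3.90, 4.40 and 6.61 CPM in cKO and 4.28, 5.25 and 5.56 CPM in WT. None of these 4 genes separated the genotypes, and Lum, like the plexus genes, was highest in cKO 6.

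Solute carriers of the leptomeningeal barrier were also narrow. The organic anion transporter genes Slc22a8 and Slc22a6, 6.2 kb apart on chromosome 19, lay between 23.7 and 28.9 CPM and between 9.05 and 11.5 CPM in cKO, and between 23.4 and 27.8 CPM and between 8.85 and 10.9 CPM in WT. The GABA and taurine transporter gene Slc6a13 lay between 18.4 and 21.4 CPM in cKO and between 16.5 and 21.3 CPM in WT. Aldh1a2, which encodes a retinoic acid synthesising enzyme of the meninges, lay between 12.4 and 15.4 CPM in cKO and between 12.9 and 17.1 CPM in WT. Ranges of the genotypes overlapped for each of these carriers and for Aldh1a2. The sulfate transporter gene Slc13a4 lay between 18.4 and 23.95 CPM in cKO and between 18.6 and 25.3 CPM in WT, and the organic cation exporter gene Slc47a1 between 7.86 and 9.52 CPM in cKO and between 7.75 and 10.6 CPM in WT. Of the remaining matrix genes, Col3a1 (type III collagen) lay between 6.93 and 12.3 CPM in cKO and between 8.33 and 11.03 CPM in WT. Ogn (osteoglycin) lay between 12.8 and 15.2 CPM in cKO and between 12.3 and 15.7 CPM in WT, and Pcolce between 8.18 and 12.3 CPM in cKO and between 8.72 and 10.8 CPM in WT. These 5 genes overlapped between genotypes as well. Col8a1, a short-chain collagen gene, was the only meningeal member to span over 2-fold, at 2.42, 3.002 and 6.17 CPM in cKO and 3.53, 3.75 and 5.27 CPM in WT.

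Over the groups, the highest library exceeded the lowest by over 2-fold for 9 of 10 choroid plexus members, 1 of 2 ependymal members (Enkur, 2.97-fold) and 1 of 19 meningeal members. Among all 13821 genes with a mean of at least 1 CPM, 426 did, and among all 15467 tested genes, which include rarer ones such as Enkur at a mean of 0.874 CPM, 1730 did. The median span was 6.09-fold for choroid plexus members and 1.34-fold for meningeal members. The biological coefficient of variation that edgeR fits within genotypes had a median of 0.431 over choroid plexus members, 0.0749 over meningeal members and 0.0459 over all tested genes.

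**Figure D2:**
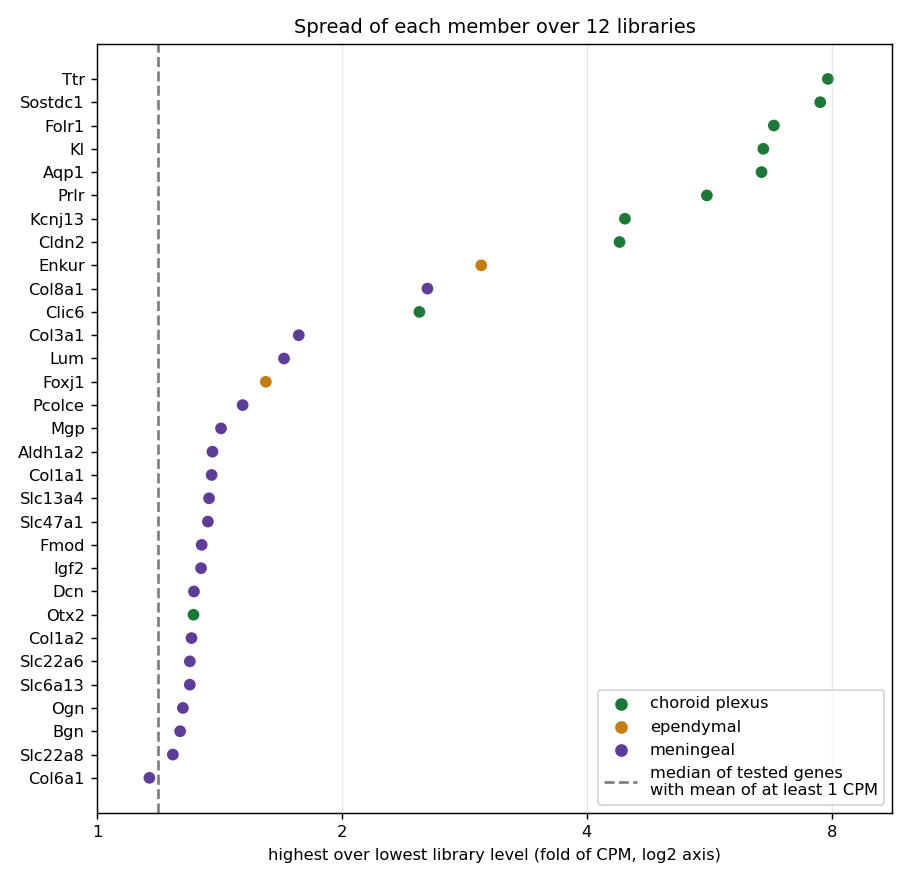
Highest over lowest CPM among the 12 libraries for each member (log axis), by tissue group, with the median of genes with a mean of at least 1 CPM as a line. Choroid plexus members except Otx2 lie above 2-fold, and meningeal members except Col8a1 lie below it.

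As a gauge per library, each member's log2 CPM was set against its 12-library mean and averaged over its group. The choroid plexus gauge was -0.77, -0.77, 0.07, -0.91, 0.19 and 1.28 in cKO 1 to cKO 6, and 0.19, -0.55, 0.41, 0.76, 0.42 and -0.32 in WT 1 to WT 6. It was lowest in cKO 4, cKO 1, cKO 2 and WT 2 and highest in cKO 6, a span of 4.59-fold. The meningeal gauge stayed between -0.14 and 0.14, a span of 1.21-fold, and the ependymal gauge, of 2 genes, between -0.46 and 0.43. The summed CPM of the 10 choroid plexus members ran between 158 and 1058 in cKO and between 219.8 and 666 in WT, with Ttr the largest term. Over the 19 meningeal members it ran between 368 and 433 CPM in cKO and between 366 and 439 CPM in WT. The labels record nothing of the dissection, and its part in these ranges was not tested.

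**Figure D3:**
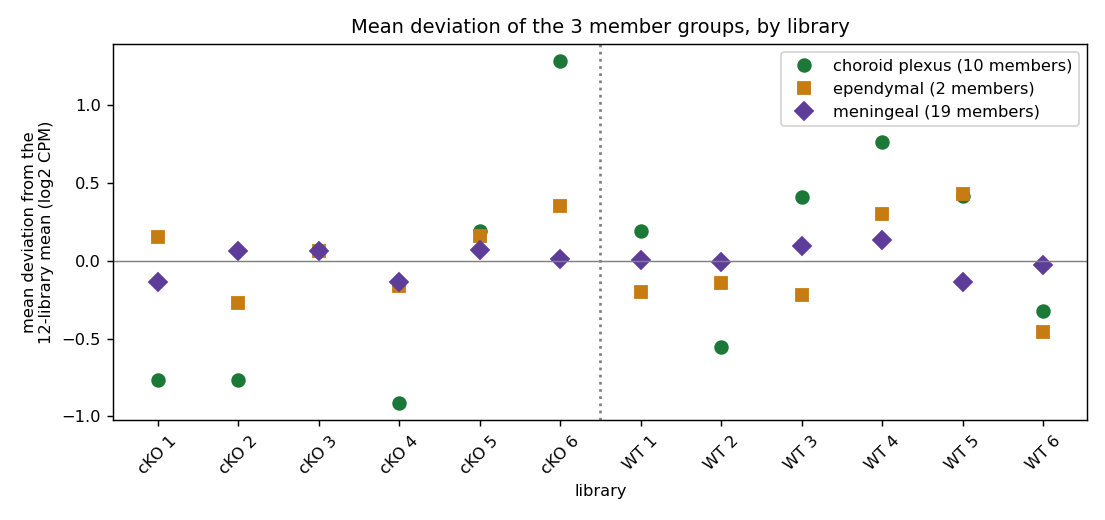
Mean log2 deviation of the choroid plexus (10), ependymal (2) and meningeal (19) members from their 12-library mean, by library, cKO left and WT right of the dotted line. The choroid plexus points range between -0.91 in cKO 4 and 1.28 in cKO 6, and the meningeal points stay within 0.14 of 0.

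Endothelial, macrophage, granule cell and astrocyte markers moved less than the choroid plexus members across the same libraries. The same gauge spanned 1.121-fold for 15 endothelial and mural markers, whose summed level lay between 348 and 393 CPM in cKO and between 364 and 379 CPM in WT. It spanned 1.31-fold for 8 border macrophage markers, 1.08-fold for 9 granule cell markers and 1.09-fold for 7 astrocyte and Bergmann glia markers. It spanned 2.79-fold for 4 tested forebrain genes, at sums of 8.21 to 11.2 CPM in cKO and 6.78 to 8.91 CPM in WT. The lowest library of that gauge was WT 1 and the highest cKO 1. Singly these 4 genes spanned between 1.39-fold and 14.9-fold, and the widest had only 0.126 CPM in its lowest library. The 1 erythrocyte marker tested, Alas2, spanned 2.16-fold, between 3.21 and 6.96 CPM in cKO and between 3.98 and 4.42 CPM in WT, lowest in cKO 5 and highest in cKO 2.

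None of the members passed the genotype test. By the quasi-likelihood test of edgeR with Benjamini-Hochberg adjustment at 0.05, 0 of 31 were called in cKO against WT, beside 2.64% of the 15467 genes tested (1.27% higher and 1.38% lower in cKO). The genotypes' values separated without overlap for 0 of 31 members, beside 2.09% of all tested genes. At an unadjusted p under 0.05 the count was also 0 with edgeR, and with DESeq2 it was 1, Mgp, beside 2202 of the 15467 genes tested with edgeR. Adjusted p ran between 0.404 (Mgp) and 0.997 (Clic6). The median log2 fold change of cKO over WT was -0.02 over the members, with 12 positive and 19 negative. Over all tested genes it was -0.0003, with 7700 positive and 7755 negative.

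The error of that comparison differed by tissue. Ttr averaged 344 ± 313 CPM in cKO and 392 ± 159 CPM in WT (SD, n = 6 each), a log2 fold change of -0.18 with a standard error of 0.42 and a 95% interval of -1.06 to 0.70 (edgeR, adjusted p = 0.902). A two-sided exact permutation of the libraries gave a difference of -0.51 in mean log2 CPM (p = 0.377). Standard errors of choroid plexus members had a median of 0.37, so that changes of 1.5-fold in either direction lay inside the interval of Ttr. Meningeal members had a median standard error of 0.07, and their log2 fold changes ran between -0.18 (Col8a1, SE 0.18) and 0.13 (Mgp, SE 0.07). Mgp, a matrix inhibitor of calcification, averaged 22.9 ± 2.60 CPM in cKO and 20.7 ± 1.78 CPM in WT (edgeR adjusted p = 0.404), and Col1a2 averaged 33.5 ± 3.55 CPM in cKO and 33.6 ± 1.74 CPM in WT, a log2 fold change of -0.0087 (95% interval -0.13 to 0.11).

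A single library weighed on the choroid plexus values. Without cKO 6 the log2 fold change of Ttr was -0.78 (edgeR adjusted p = 0.239), that of Kl -0.65 (adjusted p = 0.248), that of Cldn2 -0.66 (adjusted p = 0.0929) and that of Col8a1 -0.42 (adjusted p = 0.0847). The last is the lowest adjusted p of any member under any alternative fitted across all genes, and 0 members passed without cKO 6. In the authors' deposited table of their own comparison 0 of 31 members had an adjusted p under 0.05, the lowest being 0.370 for Mgp, and 563 genes of that table did.

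**Figure D4:**
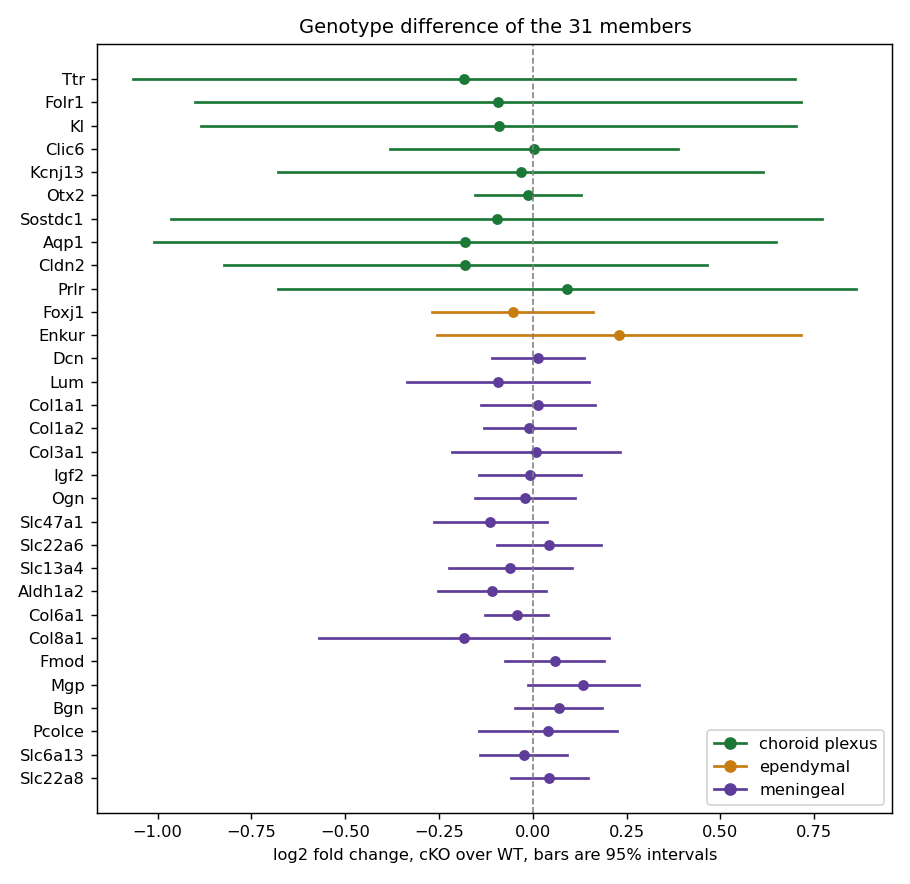
Log2 fold change of cKO over WT for each of the 31 members with its 95% interval from the edgeR fit, grouped by tissue. Every interval crosses 0, the widest being that of Ttr at -1.06 to 0.70, and that of Otx2 is narrow.

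The gauge of the 2 ependymal genes spanned 1.85-fold, between those of the meningeal and choroid plexus members. Singly, the genes overlapped both groups. Foxj1 spanned 1.61-fold, less than the meningeal Col3a1 at 1.77-fold, and Enkur 2.97-fold, more than Clic6 at 2.49-fold. Foxj1, the master regulator of motile cilia, measured 6.87, 7.97 and 10.6 CPM in cKO and 6.57, 9.14 and 9.49 CPM in WT, and Enkur, a protein of motile cilia, 0.694, 0.972 and 1.08 CPM in cKO and 0.467, 0.697 and 1.39 CPM in WT. Their genotype fold changes were -0.05 (SE 0.10) and 0.23 (SE 0.23) on the log2 scale, and neither passed. Of 25 other tested cilia genes 1 was called, beside 2.64% of all genes tested. It was Hydin, needed for the central apparatus of motile cilia. Hydin measured 10.9 ± 1.25 CPM in cKO, against 8.23 ± 0.519 CPM in WT (SD, n = 6 each). Its values did not overlap between genotypes, as was so for 2.09% of all tested genes. Its log2 fold change was 0.41 (SE 0.07; adjusted p = 0.00256 by edgeR). The next by p, Odf3b and Iqcg, had log2 fold changes of -0.10 and -0.13 and did not pass, and Hydin was not among the genes that followed Ttr.

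The wider lists of the same tissues gave few calls. Of 25 other choroid plexus genes tested 0 were called, and 2 had an unadjusted edgeR p under 0.05, a share below that of all tested genes (2202 of 15467). The lowest p was that of Lmx1a, a roof plate transcription factor, at 1.02 ± 0.278 CPM in cKO and 1.44 ± 0.183 CPM in WT (log2 fold change -0.46, SE 0.16, edgeR adjusted p = 0.176), followed by Col9a3 at -0.10 and Wfdc2 at 0.58 on the log2 scale. The median log2 fold change of this list was -0.12. Of 31 other meningeal genes 0 were called, with 2 at an unadjusted p under 0.05: Cemip, a hyaluronan-degrading protein, at -0.15 (adjusted p = 0.0781) and the complement inhibitor Serping1 at -0.18 (adjusted p = 0.105). Nupr1 followed at -0.14. DESeq2 called Cemip and Serping1 in addition to Hydin, and edgeR called Serping1 without cKO 2 and Cemip without cKO 5 or without WT 2.

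In lists of other cell types, edgeR called 4 of 9 granule cell markers, beside 2.64% of all 15467 genes tested. It called 0 of 15 endothelial and mural, 0 of 8 border macrophage and 0 of 7 astrocyte and Bergmann glia markers. Of erythrocyte markers it called 0 of 1 tested (Alas2). At an unadjusted p under 0.05 the edgeR count was 3 for the astrocyte list (Gdf10, Slc1a2 and Gfap), beside 2202 of the 15467 genes tested. It was 0 for the endothelial, macrophage and erythrocyte lists. The genes of lowest p were Des, Flt1 and Kdr for the endothelial list and Mrc1, Cd163 and Folr2 for macrophages. Gabra6 was lower in cKO, at 623 ± 29.99 CPM against 813 ± 56.1 CPM in WT. It is also the gene that the driver is named for, and no group with the driver alone is named. Zic1 was also lower in cKO, while Calb2 and Etv1 were higher. Zic1 did not pass without WT 1, without WT 3, or with the Ttr level as a covariate.

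How closely the members moved together was then measured over the 12 libraries. The 9 other choroid plexus members were each compared with Ttr on the log2 CPM scale, in a family of 29 relations that also held 2 ependymal members with Ttr and 18 meningeal members with Col1a2. Pearson's r with Ttr was 0.994 for Folr1 (Spearman's rho 0.972), 0.990 for Kl (rho 0.979), 0.973 for Sostdc1 (rho 0.944) and 0.967 for Aqp1 (rho 0.986). The permutation p of these 4 r values was 1e-05, the smallest the permutations can give (adjusted 3.22e-05). Otx2 was lowest, with r = 0.741 (permutation p = 0.00654, adjusted 0.0158) and rho = 0.727 (p = 0.00953, adjusted 0.023). Without the 2 libraries farthest from the median of Ttr, cKO 4 and cKO 1, r was 0.994 for Folr1 and 0.783 for Otx2, and all 9 relations held after adjustment. That check kept cKO 6. Within genotypes r ran between 0.851 and 0.993 in cKO and between 0.603 and 0.997 in WT (n = 6 each). In WT alone the exact permutation p was 0.21 for Otx2 and 0.0639 for Kcnj13, and under 0.05 for the others. The libraries differ in depth, and both values of a pair come from the same library.

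Foxj1 gave r = 0.621 with Ttr (permutation p = 0.0335, adjusted 0.0606; rho 0.608, p = 0.0402) and 0.592 without those 2 libraries, and neither passed after adjustment. Col1a1 followed Col1a2 with r = 0.932 (permutation p = 1e-05, adjusted 3.22e-05; rho 0.867, p = 0.00051) and 0.955 without cKO 6 and cKO 4. Among the 18 meningeal members 5 relations with Col1a2 passed adjustment: Col1a1, Slc22a6, Aldh1a2, Mgp and Slc6a13. Without those libraries Col1a1 and Slc22a6 still passed and the other 3 did not, while Pcolce passed there (adjusted permutation p = 0.0143) and not over 12 libraries (0.35). Col1a2 itself gave r = -0.036 with Ttr (permutation p = 0.912; rho -0.056, p = 0.869), in a further family of 30 relations chosen after the data were seen. In that family 1 relation passed adjustment, Col8a1 with Ttr at r = 0.858 (permutation p = 0.00029, adjusted 0.0087; rho 0.86, p = 0.00047), and without cKO 4 and cKO 1 it was 0.784 and did not pass (adjusted 0.229). Slc13a4 had r = 0.773 (adjusted permutation p = 0.0639) and Pcolce 0.717 (adjusted 0.0928). As a description, the median r of pairs was 0.937 for 45 choroid plexus pairs, 0.426 for 171 meningeal pairs and 0.067 for 190 pairs of a choroid plexus with a meningeal member.

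Likeness over 12 libraries was ranked among genes outside the members with a mean of at least 1 CPM. Of these, the genes most like Ttr were Ace (r = 0.986), Car12 (0.986), Sema3b (0.986), Kcne2 (0.985) and Enpp2 (0.98). Those most like Col1a2 were Inf2 (0.898), Scly (0.892), Itfg3 (0.873), Fbln1 (0.863) and Smarcd1 (0.852). Both sets are descriptions and carry no test.

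A fit across all genes with genotype and the log2 CPM of Ttr, chosen after the data were seen, gave the slope of each gene on Ttr. A slope of 1 means that a gene doubles when Ttr doubles. Rising with Ttr were 65 of 15466 genes (0.42%), and falling were 3 (0.0194%; edgeR, adjusted p under 0.05). Of the 9 choroid plexus members other than Ttr, 8 rose with it. The slopes were 0.95 for Sostdc1 (SE 0.07), 0.89 for Folr1 (SE 0.04), 0.89 for Aqp1 (SE 0.07), 0.88 for Kl (SE 0.03), 0.80 for Prlr (SE 0.06), 0.66 for Kcnj13 (SE 0.06), 0.65 for Cldn2 (SE 0.06) and 0.39 for Clic6 (SE 0.04). Otx2 had a slope of 0.10 (SE 0.03, edgeR adjusted p = 0.271). Those slopes order the members by how far their cerebellar level moves with that of Ttr: near 1 for Sostdc1, Folr1, Aqp1 and Kl, and near 0 for Otx2.

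**Figure D5:**
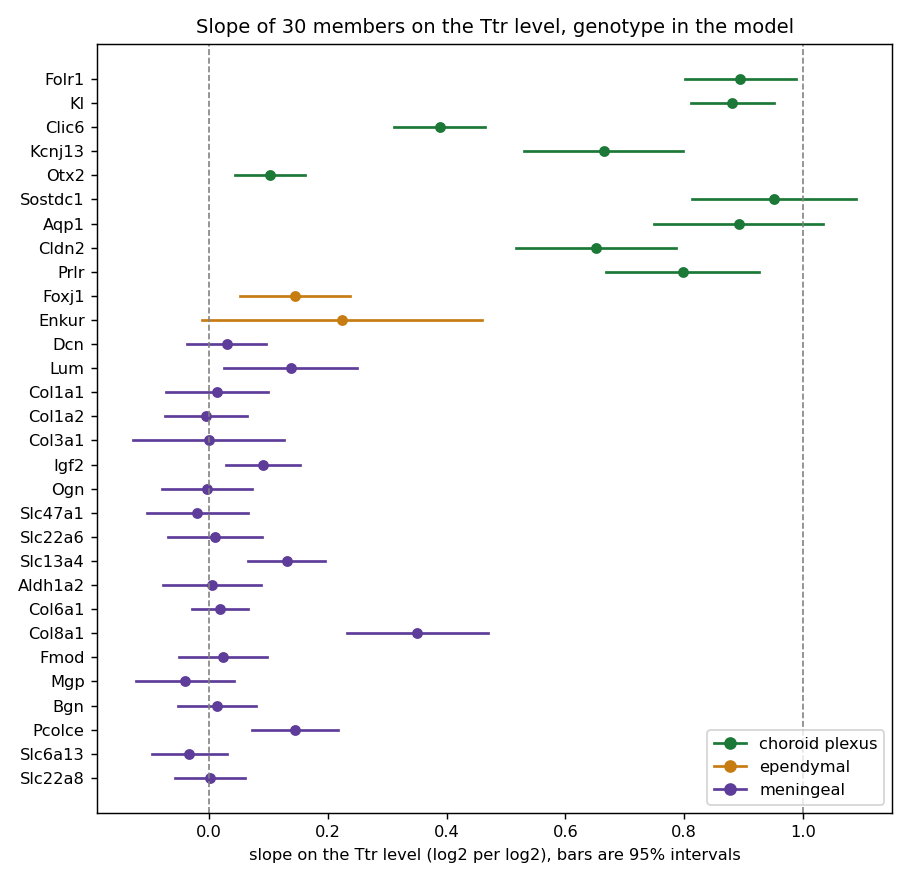
Slope of log2 CPM on log2 CPM of Ttr for the other 30 members, with 95% intervals, from the edgeR fit with genotype. Choroid plexus slopes run between 0.10 (Otx2) and 0.95 (Sostdc1), and the only meningeal slope that passed is that of Col8a1 at 0.35.

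Of 19 meningeal members 1 rose with Ttr: Col8a1, at a slope of 0.35 (SE 0.06, edgeR adjusted p = 0.00261). Slc13a4, a sulfate transporter gene, had a slope of 0.13 (adjusted p = 0.0966) and Pcolce, an enhancer of procollagen processing, 0.14 (adjusted p = 0.0978). Igf2 had 0.09 (adjusted p = 0.575) and Lum 0.14 (adjusted p = 0.850). At an unadjusted edgeR p under 0.05 the count was 5 of 19, beside 726 of 15466 genes. They were Col8a1, Slc13a4, Pcolce, Igf2 and Lum. Of the 19 slopes 13 were positive, beside 7517 of 15466 genes. Col1a2 had -0.005 (SE 0.03). Both ependymal members missed the threshold, Foxj1 with a slope of 0.15 (adjusted p = 0.436) and Enkur with 0.22. The lists of other genes were chosen with earlier results of these data known. Among them, 20 of 25 choroid plexus, 0 of 25 cilia and 1 of 31 meningeal genes (Dpep1, slope 1.24) rose with Ttr. Of the 65 rising genes 35 were in none of the lists. No endothelial, macrophage, granule cell, astrocyte or forebrain marker rose with Ttr, and Alas2 had a slope of -0.24, which did not pass adjustment. The same fit on the level of Col1a2 called 0 of 15466 genes in either direction by edgeR (0% and 0%), with 1408 at an unadjusted p under 0.05.

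The same 8 choroid plexus members rose with Ttr whichever library was left out. Without cKO 6 the genes rising with Ttr numbered 29 and the other choroid plexus genes among them 12, and Col8a1 no longer passed. Without cKO 2 or without WT 5, 3 meningeal members passed. With the Ttr level in the genotype fit, 300 genes were called for genotype, 299 of them among the 409 called without it, and 0 members were called. Of the 68 genes that rose or fell with Ttr 0 were called for genotype, beside 2.64% of all 15467 genes tested. The set is small, so this 0 does not separate it from that share. Standard errors of the genotype fold change also had a median of 0.37 over choroid plexus members, beside 0.04 over all tested genes.

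The members lie on 16 chromosomes, in GENCODE M21 annotation of mm10, and the only neighbours within 1000000 bases are Dcn and Lum, 47.0 kb apart on chromosome 10, and the pair Slc22a6 and Slc22a8. In all 13 members overlap another annotated gene, among them Folr1 (Anapc15 on the opposite strand), Kcnj13 (Gigyf2, opposite strand), Clic6, Otx2, Igf2, Ogn and Pcolce. These are overlaps of whole gene bodies, introns included, and 8 members have one on the same strand. Whether reads of an overlapping gene were counted for a member is not known. The annotation and strand setting of the counting are not given.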

How the data were processed

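The authors deposited a table of raw read counts per gene symbol (18394 genes, 12 libraries) and a table of their own comparison with log2 fold change, p-value and adjusted p-value, per the file headers. Per the submitters' processing notes, STAR, DESeq2 and mm10 were used, with no versions named. Which tool counted the reads, with what strand setting and annotation, is not given in the sources used here. Sequencing used a stranded mRNA kit and shared lanes, per the labels' protocols. The authors' deposited log2 fold changes appear shrunken, and their sign was read from 400 genes called in both analyses, all of the same sign. All 12 columns were matched by their own identifiers (0 unmatched columns, 0 rows without a name).

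Tests used edgeR 4.0.16 in R 4.3.3: filterByExpr (15467 genes kept), TMM, and the quasi-likelihood test with Benjamini-Hochberg adjustment at 0.05. Replicates differed by more than counting noise (chi-square per degree of freedom at least 2.68), and p-values rest on the spread between libraries. With 1 library per animal, differences between animals are not separated from those of dissection or library preparation. Permutation p-values used 924 exact assignments for genotype (smallest 0.00216) and 1e+05 permutations for relations over 12 libraries. Alternatives were DESeq2 1.42.0, its size factors, no filter on low counts, robust dispersion, each library left out, and the Ttr level as a covariate, the last added after the data were seen. The gene fit was tested on simulated data. Promoters came from RefSeq.

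The members and lists were chosen with earlier results of these data known. All 31 members are named, with the 3 genes of lowest p in each other list and the 5 genes most like Ttr and Col1a2. Other genes are named to complete a count. The genotype test of the forebrain list is not reported here, though counts over all genes and lists include it.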

Additional observations from a re-analysis of the deposited data

Results flagged for a closer look

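Each member was checked in each genotype for a library far from the other 5, the gap to the nearest library being set against the whole range of the 6 on the log2 CPM scale. Chance flags about 1 in 20 groups, and 3 of 62 groups stood out. Clic6 in cKO 6 was at 32.5 CPM, with the next highest cKO library at 18.04 CPM. Lum in cKO 6 was at 6.61 CPM, with the next at 4.58 CPM. Slc6a13 in WT 5 was at 16.5 CPM, below the next lowest WT library at 20.2 CPM. On the log2 scale the ratios of gap to range were 0.646 for Clic6, 0.695 for Lum and 0.787 for Slc6a13, above the 95% critical value of Dixon's test for 6 values. On the CPM scale itself 9 groups passed that value: these 3, and Ttr, Folr1, Kl, Aqp1, Cldn2 and Prlr in cKO, with ratios between 0.643 (Ttr) and 0.776 (Prlr), cKO 6 being the highest library in 8 of the 9. Their causes were not tested.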

How the results depend on the processing

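No paired analysis was possible because the replicate numbers follow accession order and pair no animals. The count of members called, 0, was the same under every alternative run. Of 557 member fold changes recomputed, 490 kept their direction and side of the threshold and 67, in 16 members, changed sign without passing; the causes were not tested. With the Ttr level as covariate the log2 fold change was 0.0298 for Folr1, 0.0662 for Kl, 0.11 for Kcnj13, 0.0318 for Otx2, 0.0398 for Sostdc1, 0.0017 for Foxj1 and 0.0328 for Igf2. DESeq2 gave -0.0184 for Clic6, and the permutation scale -0.0648 for Clic6, -0.21 for Prlr and -0.0259 for Col3a1. With each library left out in turn, it ran from -0.66 to 0.0823 for Folr1, -0.65 to 0.0834 for Kl, -0.24 to 0.093 for Clic6, -0.45 to 0.13 for Kcnj13, -0.0622 to 0.0233 for Otx2, -0.67 to 0.10 for Sostdc1, -0.76 to 0.0007 for Aqp1, -0.54 to 0.25 for Prlr, -0.0227 to 0.0531 for Dcn, -0.0312 to 0.0645 for Col1a1, -0.0578 to 0.0238 for Col1a2, -0.081 to 0.0707 for Col3a1, -0.0413 to 0.0378 for Igf2, -0.0568 to 0.0095 for Ogn and -0.0344 to 0.095 for Pcolce. The 409 genes called in the whole table became 272 without WT 3 (272 to 459 with a library left out). Calls in the related lists numbered 3 with DESeq2 and 1 to 2 with a library left out, and those in other cell type lists 3 with the Ttr covariate and 3 to 6. Genes rising with Ttr numbered 29 to 78, other choroid plexus genes among them 12 to 21, and meningeal members 0 to 3 (3 with DESeq2: Col8a1, Slc13a4 and Pcolce). Enkur had as few as 17 counts in a library.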

Other observations

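Several genes outside the lists moved with Ttr and are named here after their values were seen. Crhr2, the other receptor for corticotropin-releasing factor family peptides, rose with the Ttr level at a slope of 0.61 (SE 0.10, edgeR adjusted p = 0.00211). Its level lay between 0.232 CPM (cKO 4) and 1.30 CPM (cKO 6) in cKO libraries and between 0.349 and 0.753 CPM in WT libraries. It did not pass for genotype (adjusted p = 0.811).

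Drc7, Gmnc, Daw1 and Cfap43 rose with Ttr at slopes of 0.69, 0.64, 0.60 and 0.48 (edgeR adjusted p between 1.18e-06 and 0.0258). Of the 25 listed cilia genes, 23 had a positive slope on Ttr, beside 7517 of 15466 genes. At an unadjusted edgeR p under 0.05 the count was 7, beside 726 of 15466 genes, and 0 passed adjustment. S100a8 and S100a9, which encode the subunits of the neutrophil protein calprotectin, fell with Ttr at slopes of -0.66 and -0.51 (adjusted p = 0.0166 and 0.0160). S100a8 lay between 0.273 CPM (cKO 6) and 1.89 CPM (cKO 4) in cKO and between 0.379 and 0.733 CPM in WT.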
